A study of Mus musculus with 24 samples.

Results

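The mRNA levels of 9 genes by which hematopoietic stem cells (HSCs) are recognised were followed across 24 bulk mRNA-seq libraries of mouse bone marrow. The genes were Mecom, Hlf, Procr, Fgd5, Ctnnal1, Mllt3, Meis1, Prdm16 and Adgrg1. They were taken as a fixed list of symbols, and each of the 9 was found among the 55376 genes of the count tables. Of these genes, 5 encode nuclear regulators (Mecom, Prdm16, Hlf, Meis1 and Mllt3), Procr and Adgrg1 encode surface receptors, and Fgd5 and Ctnnal1 encode cytoplasmic signalling proteins.

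The study asked how raised levels of tristetraprolin (TTP), the RNA-binding protein encoded by Zfp36, bear on primitive marrow cells of young and older mice. Homozygous TTPΔARE mice lack an AU-rich element in the 3′ UTR of Zfp36 in every cell of the body, so that marrow cells and their surroundings both carried the change, and wild-type (WT) littermates were the controls. The mice were male and either young (Y, 4 to 5 months) or middle-aged (M, 12 months). HSCs were sorted as Lin-Sca1+cKit+ (LSK) CD34-Flk2-CD150+ cells from Y-WT (n = 4 libraries), Y-TTPΔARE (n = 4), M-WT (n = 5) and M-TTPΔARE (n = 3) mice, and MPP3 cells, multipotent progenitors biased towards granulocytes and monocytes, from Y-WT (n = 4) and Y-TTPΔARE (n = 4) mice.

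HSCs lie at the top of the blood hierarchy, divide rarely and can rebuild every blood lineage after transplantation. Their identity rests on a network of transcription factors that keeps self-renewal genes on and lineage genes off, and on surface proteins that hold them in the marrow niche. Most of these genes are turned down as HSCs mature into multipotent progenitors, and several are known to be higher in HSCs of older mice.

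Levels are given as CPM, the count of a gene scaled to the total count of its library, with TMM scaling over the 24 libraries. Total counts lay between 24261371 and 39934554 per library (median 34817620.5), and the lowest count of any of the 9 genes in any library was 321. Zfp36 itself stood at 32.5 to 69.2 CPM in Y-WT HSCs and 85.4 to 105 CPM in Y-TTPΔARE HSCs, at 41.6 to 60.4 CPM in M-WT and a median of 104 CPM in M-TTPΔARE HSCs, and at 20.5 to 38.4 and 81.7 to 124 CPM in MPP3 cells, so that every TTPΔARE library lay above every WT library of its set. Genes of sort markers, named sort gate genes here, were read beside the HSC gate. The study's text does not spell out the markers of its MPP3 gate, so that gate was not checked. In Y-WT mice Slamf1, which encodes CD150, was higher in HSCs (log2 fold change 4.69), while Cd48 (−4.09), Flt3 (−3.31) and Cd34 (−2.27) were lower.

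Some libraries stood apart. The summed CPM of 12 endothelial genes was 838, 367, 340 and 939 in replicates 1 to 4 of the Y-WT HSCs, against 323 to 393 in Y-TTPΔARE HSCs, 257 to 321 in M-WT HSCs, 282 to 306 in M-TTPΔARE HSCs and 223 to 345 over the MPP3 libraries. Cdh5, which defines endothelial cells, reached 23.7 CPM in a Y-WT HSC library and had a mean of 4.36 CPM (SD 1.01) in Y-TTPΔARE HSCs. It stayed at or below 1.47 CPM in every M HSC and MPP3 library. Summed olfactory and vomeronasal receptor genes are named receptor genes here and are known from sensory neurons. They took 61.4, 790, 983 and 597 CPM in replicates 1 to 4 of the Y-WT HSCs, and 39.2 to 209 CPM in M-WT HSCs. The study used 3 of the 4 Y-TTPΔARE MPP3 libraries, without stating which in its text. All 4 are used here, and values without replicate 4, or without another of them where a call changes, are given beside the results. Members' results that rest on Y-WT HSCs are likewise given without replicates 1 and 4, except for the test of genotype effects by cell type. Other gene lists are given with all libraries only.

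TTP marks mRNAs for decay by binding the heptamer UAUUUAU in 3′ UTRs, including that of its own mRNA. The sequences below show this heptamer, written as TATTTAT in capitals, with the bases on either side, in Zfp36 and in 4 of the 9 genes; Procr is shown as the member that differed with genotype in M HSCs, Fgd5 as the member with the largest genotype difference in MPP3 cells, and Mecom and Mllt3 as 2 of the 3 members with more than 1 site. Of the 3 sites in Zfp36 the first 2 are shown. They were read from GENCODE M21 transcripts on GRCm38 and run 5′ to 3′ along the mRNA.
Zfp36 site 1 (chr7:28376967-28376993, minus strand): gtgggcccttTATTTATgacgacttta
Zfp36 site 2 (chr7:28376952-28376978, minus strand): atgacgacttTATTTATtgtattaaga
Procr site 1 (chr2:155755400-155755426, plus strand): ttaaatttctTATTTATgtaaaaggtg
Mecom site 1 (chr3:29952528-29952554, minus strand): aaaaggaagcTATTTATtctcaatatt
Mecom site 2 (chr3:29951919-29951945, minus strand): gtgtatcatgTATTTATttgttggcaa
Mllt3 site 1 (chr4:87773621-87773647, minus strand): ataactgatcTATTTATtaccacatac
Mllt3 site 2 (chr4:87773040-87773066, minus strand): aatttgaatcTATTTATtagtgagcat
Mllt3 site 3 (chr4:87770531-87770557, minus strand): tgtattcctaTATTTATatatatatat
Fgd5 site 1 (chr6:92074737-92074763, plus strand): ccccaagagcTATTTATagacatcttc

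The heptamer, searched on the sense strand of the longest annotated 3′ UTR of each gene, was found in 6 of the 9 genes. It occurred 3 times in Mllt3, 2 times in each of Mecom and Hlf, and once in each of Procr, Fgd5 and Prdm16. It was absent from the annotated 3′ UTRs of Ctnnal1, Meis1 and Adgrg1. Of 20904 genes with an annotated 3′ UTR, 27.6% held it, and of those with a 3′ UTR of at least 2000 bases 56.5% did. The 3′ UTRs of the 9 genes ran from 587 bases in Procr to 5687 bases in Meis1, so that the longest had no match. In the reference (wild-type) Zfp36 it occurred 3 times, 575, 590 and 615 bases after the stop codon. A match is a run of letters and was not tested as a binding site.

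**Figure D1:**
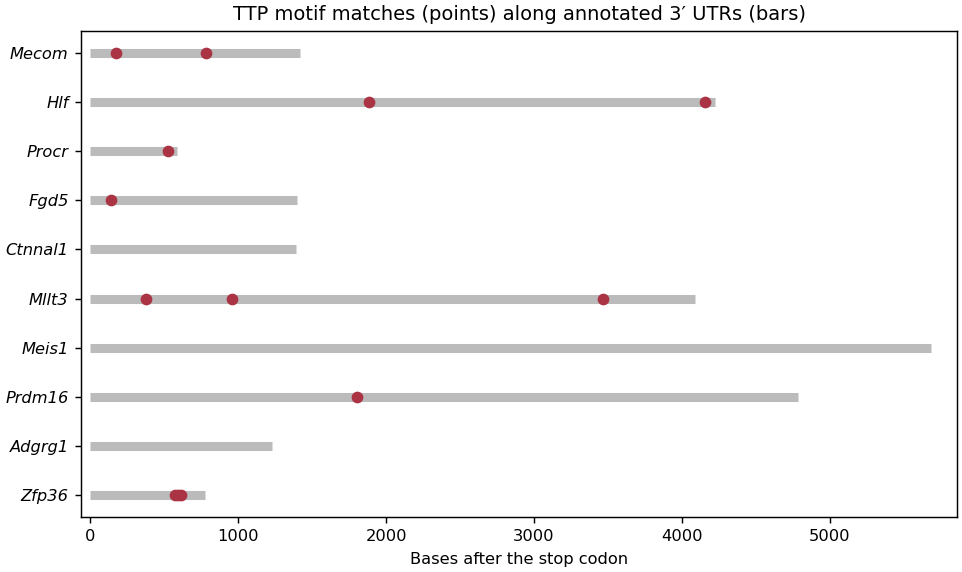
Matches of the TTP heptamer (points) along the longest annotated 3′ UTR (grey bars) of the 9 genes and Zfp36, with bases after the stop codon on the horizontal axis. The 3 matches of Zfp36 sit side by side between 575 and 615 bases, whereas those of Mllt3 are spread from 378 to 3468 bases, and Ctnnal1, Meis1 and Adgrg1 have none.

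Levels of different genes were compared per kilobase of annotated exons. In Y-WT HSCs Adgrg1 was the highest, at 537 ± 13.9 CPM per kb (SD, n = 4). Procr (78.8), Hlf (66.8) and Meis1 (54.9 CPM per kb) came next, followed by Mllt3 and Mecom (both 19.2) and Fgd5 (11.3), with Ctnnal1 (7.46) and Prdm16 (7.17 CPM per kb) at the bottom. The neighbours Procr and Hlf, Mllt3 and Mecom, and Ctnnal1 and Prdm16 overlapped between libraries in this order. In Y-WT MPP3 cells Adgrg1 was again the highest, at 452 CPM per kb, and Hlf (62.3), Meis1 (43.8) and Procr (39.7 CPM per kb) again formed the next tier. Mllt3 moved from the fifth place in Y-WT HSCs to the eighth in Y-WT MPP3 cells, at 3.82 CPM per kb, and overlapped there with Ctnnal1 (2.67 CPM per kb).

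**Figure D2:**
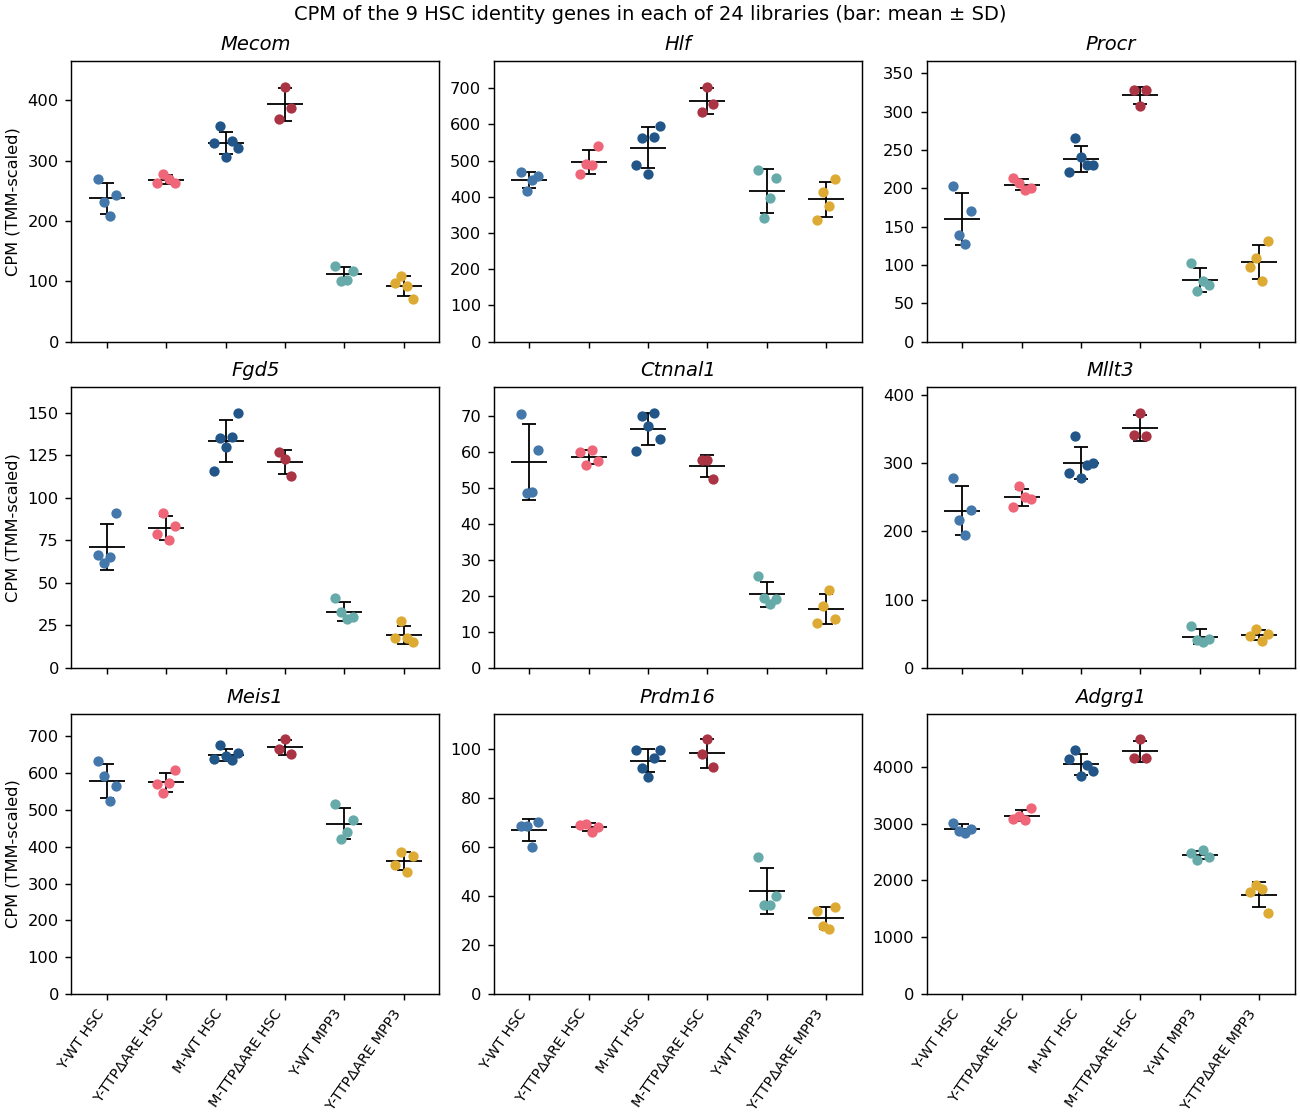
CPM of each of the 9 genes (vertical axes, each starting at 0) in the 24 libraries (points), by group, with the mean and SD of each group as black bars. Mllt3 drops furthest from HSCs to MPP3 cells, Hlf hardly at all in WT, and Fgd5 and Adgrg1 are higher in all M HSC libraries than in any Y HSC library.

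Among the nuclear regulators, Mecom encodes the zinc-finger factor EVI1 and its longer form MDS1-EVI1, which is needed for HSC self-renewal. Its levels were 270, 231, 208 and 243 CPM in the 4 Y-WT HSC libraries and 263, 278, 270 and 263 CPM in the 4 Y-TTPΔARE HSC libraries. Mecom stood at 329, 357, 307, 332 and 321 CPM in M-WT HSCs and at 369, 423 and 388 CPM in M-TTPΔARE HSCs. In MPP3 cells Mecom gave 126, 101, 102 and 118 CPM for Y-WT and 98.1, 109, 91.6 and 70.9 CPM for Y-TTPΔARE mice. No HSC library of Mecom overlapped with an MPP3 library, all 8 M HSC libraries lay above all 8 Y HSC libraries, and M-TTPΔARE lay above M-WT without overlap. Mecom lies on GRCm38 at chr3:29951296-30548008, minus strand.

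Prdm16, a relative of Mecom with the same type of PR domain, keeps HSCs from being lost. Its levels were 68.7, 68.6, 60.1 and 70.1 CPM in Y-WT HSCs and 69.1, 69.3, 66.1 and 68.1 CPM in Y-TTPΔARE HSCs. Prdm16 stood at 99.5, 92.2, 88.6, 96.1 and 99.5 CPM in M-WT HSCs and at 97.9, 104 and 92.5 CPM in M-TTPΔARE HSCs. In MPP3 cells Prdm16 gave 55.9, 36.2, 36.2 and 39.9 CPM for Y-WT and 33.8, 27.8, 26.7 and 35.7 CPM for Y-TTPΔARE mice. All M HSC libraries of Prdm16 were above all Y HSC libraries, the genotypes overlapped at both ages, and Y-TTPΔARE MPP3 cells were below Y-WT MPP3 cells without overlap. The gene spans chr4:154316125-154636873, minus strand.

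Hlf, a PAR-bZIP factor that helps to hold HSCs in quiescence, was the member with the smallest difference between the cell types in Y-WT mice. Its levels were 467, 417, 446 and 456 CPM in Y-WT HSCs and 463, 489, 487 and 541 CPM in Y-TTPΔARE HSCs. Hlf stood at 487, 562, 463, 565 and 596 CPM in M-WT HSCs and at 633, 704 and 657 CPM in M-TTPΔARE HSCs. In MPP3 cells Hlf gave 474, 341, 396 and 452 CPM for Y-WT and 335, 413, 374 and 448 CPM for Y-TTPΔARE mice. Y-WT HSCs and Y-WT MPP3 cells overlapped, whereas all 3 M-TTPΔARE HSC libraries were above every other library. Hlf lies at chr11:90336536-90390895, minus strand.

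Meis1, a homeodomain partner of HOX and PBX proteins, supports HSC maintenance. Its levels were 632, 592, 524 and 564 CPM in Y-WT HSCs and 569, 545, 574 and 609 CPM in Y-TTPΔARE HSCs. Meis1 stood at 639, 676, 646, 634 and 653 CPM in M-WT HSCs and at 666, 692 and 651 CPM in M-TTPΔARE HSCs. In MPP3 cells Meis1 gave 516, 420, 439 and 472 CPM for Y-WT and 351, 386, 332 and 376 CPM for Y-TTPΔARE mice. M HSC libraries of Meis1 began just above the highest Y HSC library, and the TTPΔARE MPP3 libraries all lay below the WT ones. Meis1 is at chr11:18879817-19018985, minus strand.

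Mllt3 encodes AF9, a reader of acylated histones that recruits elongation and methylation machinery and maintains HSCs. Its levels were 279, 217, 195 and 232 CPM in Y-WT HSCs and 236, 266, 251 and 248 CPM in Y-TTPΔARE HSCs. Mllt3 stood at 286, 340, 278, 297 and 301 CPM in M-WT HSCs and at 341, 374 and 340 CPM in M-TTPΔARE HSCs. In MPP3 cells Mllt3 gave 61.6, 40.6, 38.4 and 42.7 CPM for Y-WT and 46.6, 56.7, 38.7 and 49.9 CPM for Y-TTPΔARE mice. The lowest HSC library of Mllt3, at 195 CPM, was far above the highest MPP3 library, at 61.6 CPM. M-WT and Y-WT HSCs touched in their ranges, since Y-WT replicate 1 reached 279 CPM. The gene spans chr4:87769925-88033364, minus strand.

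Of the surface receptors, Procr encodes EPCR (CD201), the receptor of protein C, which retains HSCs in the marrow and is also made by endothelial cells. Its levels were 203, 139, 128 and 170 CPM in Y-WT HSCs and 214, 207, 198 and 200 CPM in Y-TTPΔARE HSCs. Procr stood at 222, 266, 241, 230 and 231 CPM in M-WT HSCs and at 328, 308 and 328 CPM in M-TTPΔARE HSCs. In MPP3 cells Procr gave 103, 66.5, 78.6 and 73.9 CPM for Y-WT and 97.2, 109, 79.2 and 132 CPM for Y-TTPΔARE mice. The 2 highest Y-WT HSC libraries of Procr were replicates 1 and 4, the 2 that stood apart in endothelial genes. The same 2 libraries were the highest of their group for every other member except Meis1. M-TTPΔARE lay above M-WT without overlap for Procr. Procr occupies chr2:155751117-155755471, plus strand.

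Adgrg1 encodes GPR56, an adhesion G protein-coupled receptor used to mark HSCs. Its levels were 3014, 2873, 2840 and 2911 CPM in Y-WT HSCs and 3074, 3126, 3071 and 3275 CPM in Y-TTPΔARE HSCs. Adgrg1 stood at 4133, 4291, 3831, 4023 and 3930 CPM in M-WT HSCs and at 4160, 4488 and 4161 CPM in M-TTPΔARE HSCs. In MPP3 cells Adgrg1 gave 2490, 2366, 2532 and 2420 CPM for Y-WT and 1804, 1923, 1847 and 1432 CPM for Y-TTPΔARE mice. The groups of Adgrg1 did not overlap in 6 of the 7 comparisons, the exception being M-TTPΔARE against M-WT HSCs. Adgrg1 lies at chr8:94974751-95014217, plus strand.

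Fgd5, an activator of the small GTPase CDC42 whose locus has been used to label HSCs, is also known from endothelial cells. Its levels were 66.3, 61.9, 65.0 and 90.8 CPM in Y-WT HSCs and 78.8, 91.2, 75.3 and 83.7 CPM in Y-TTPΔARE HSCs. Fgd5 stood at 116, 135, 130, 136 and 150 CPM in M-WT HSCs and at 127, 123 and 113 CPM in M-TTPΔARE HSCs. In MPP3 cells Fgd5 gave 41.3, 32.6, 28.9 and 29.7 CPM for Y-WT and 17.3, 27.3, 17.6 and 15.0 CPM for Y-TTPΔARE mice. Y-WT replicate 4, the library highest in endothelial genes, was far above the other 3 for Fgd5. The gene lies at chr6:91978878-92076004, plus strand.

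Ctnnal1, which encodes α-catulin, a relative of α-catenin and vinculin, marks HSCs in reporter mice. Its levels were 70.6, 48.5, 48.8 and 60.7 CPM in Y-WT HSCs and 60.0, 56.3, 60.7 and 57.5 CPM in Y-TTPΔARE HSCs. Ctnnal1 stood at 60.4, 70.1, 67.2, 70.9 and 63.7 CPM in M-WT HSCs and at 57.8, 57.9 and 52.6 CPM in M-TTPΔARE HSCs. In MPP3 cells Ctnnal1 gave 25.5, 19.4, 17.8 and 19.1 CPM for Y-WT and 12.4, 17.3, 21.7 and 13.7 CPM for Y-TTPΔARE mice. Ctnnal1 was the only member for which M-TTPΔARE HSCs lay wholly below M-WT HSCs. Its 2 highest Y-WT HSC libraries were replicates 1 and 4, as for every other member except Meis1. It lies at chr4:56810935-56865188, minus strand.

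HSCs were compared with MPP3 cells within young mice of each genotype. In Y-WT mice 8 of the 9 genes rose in HSCs, from 1.22-fold for Adgrg1 to 5.21-fold for Mllt3, and Hlf did not pass the test. In Y-TTPΔARE mice all 9 rose, from 1.35-fold for Hlf to 5.56-fold for Mllt3. Calls were made by edgeR's quasi-likelihood test and needed a Benjamini-Hochberg adjusted p under 0.05 over all genes tested, a change of more than 1.2-fold and a mean logCPM above 1.5. By this rule 7.69% of 22816 genes were called higher in HSCs of Y-WT mice and 7.22% of 21478 genes in HSCs of Y-TTPΔARE mice. The median log2 fold change of the 9 genes was 1.04 in Y-WT and 1.24 in Y-TTPΔARE mice, against 0.16 and 0.05 over all genes tested. HSC and MPP3 libraries did not overlap for 8 of the 9 genes in Y-WT mice, where 46.1% of genes over the logCPM limit were apart in either direction. They did not overlap for any of the 9 in Y-TTPΔARE mice, where 37.5% of genes were apart.

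Mllt3 had the largest log2 fold change of the 9 genes in both genotypes, 2.38 (SE 0.19, adjusted p = 4.8e-05) in Y-WT and 2.47 (SE 0.14, adjusted p = 4.7e-06) in Y-TTPΔARE mice. In Y-WT mice the cytoplasmic proteins' genes followed, Ctnnal1 at 1.53 (SE 0.17, adjusted p = 2.9e-04) and Fgd5 at 1.14 (SE 0.15, adjusted p = 6.8e-04). Mecom rose by 1.13 (SE 0.13, adjusted p = 3.2e-04) and Procr by 1.04 (SE 0.19, adjusted p = 0.00322) on the log2 scale. Smaller rises were those of Prdm16 (0.71, SE 0.14, adjusted p = 0.00550), Meis1 (0.37, SE 0.11, adjusted p = 0.0311) and Adgrg1 (0.29, SE 0.07, adjusted p = 0.0120). For Hlf the log2 fold change was 0.14 (SE 0.12, adjusted p = 0.388), with a 95% interval from −0.12 to 0.40. The order was thus not that of the levels, since Adgrg1, Hlf and Meis1, which with Procr were the highest per kilobase, had the 3 smallest differences.

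In Y-TTPΔARE mice Fgd5 came second, at a log2 fold change of 2.16 (SE 0.22, adjusted p = 1.2e-04), before Ctnnal1 at 1.93 (SE 0.20, adjusted p = 1.1e-04) and Mecom at 1.62 (SE 0.18, adjusted p = 1.9e-04). Prdm16 (1.24), Procr (1.08), Adgrg1 (0.92), Meis1 (0.76) and Hlf (0.43, SE 0.10, adjusted p = 0.0159) followed. All 9 also rose without replicate 4 of the Y-TTPΔARE MPP3 libraries. Without replicates 1 and 4 of the Y-WT HSCs, 5 of the 9 genes were called in Y-WT mice. Prdm16 (log2 fold change 0.62, adjusted p = 0.0668), Meis1 (0.28, adjusted p = 0.114) and Adgrg1 (0.23, adjusted p = 0.0311, below the fold limit) were not. Calls also fell over all genes in that setting, with 792 higher in HSCs against 1755 with all libraries, and 3254 lower against 3314.

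The smallest rises hung on single libraries. Without replicate 1 of the Y-WT HSCs, Meis1 (log2 fold change 0.24, adjusted p = 0.0697) and Adgrg1 (0.19, adjusted p = 0.0218, below the fold limit) were not called, nor were they without replicate 2 of the Y-WT MPP3 libraries (0.31, adjusted p = 0.170, and 0.26, adjusted p = 0.121). Adgrg1 also fell below the fold limit without replicate 4 of the Y-WT MPP3 libraries (0.26, adjusted p = 0.00829). In Y-TTPΔARE mice Hlf was not called without HSC replicate 2 (adjusted p = 0.0511) or 4 (adjusted p = 0.0676) or MPP3 replicate 1 (adjusted p = 0.0692), its log2 fold change staying at 0.39 to 0.44. Of all genes called in Y-WT mice 1755 were higher and 3314 lower in HSCs, and with upper quartile scaling 2950 were higher and 2048 lower, a setting under which Hlf was called too (0.32, adjusted p = 0.0396).

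**Figure D3:**
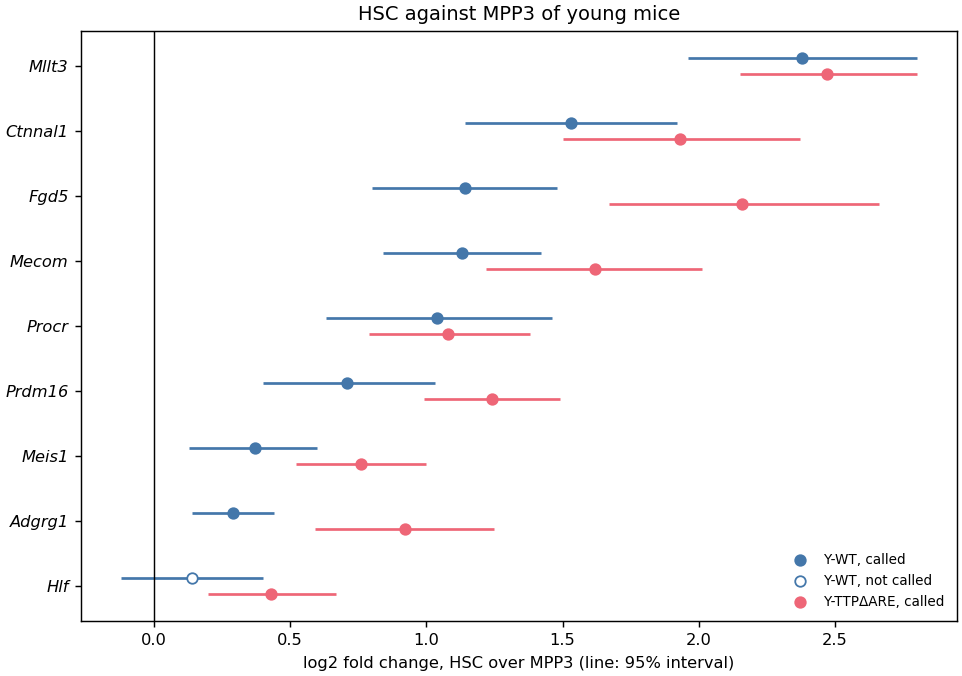
Log2 fold change of HSC over MPP3 (horizontal axis) with its 95% interval (line) for the 9 genes in Y-WT (blue) and Y-TTPΔARE mice (red); filled points passed the rule for a call. Mllt3 is at the top at 2.38 and 2.47, and the open point is Hlf in Y-WT mice, at 0.14.

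Genes related to the members by role were read from the same fits. Of 20 other HSC regulators, 10 rose and 1 fell in Y-WT HSCs, and 10 rose and 0 fell in Y-TTPΔARE HSCs. Those that rose in Y-WT mice included Hoxb5 (log2 fold change 2.86), Tcf15 (2.22) and Mycn (1.32), all of which encode transcription factors. Of 20 other HSC surface and signalling genes, 18 rose in Y-WT and 16 in Y-TTPΔARE HSCs and 0 fell, with Gda (4.74), Sult1a1 (4.62), Vwf (3.79) and Neo1 (3.74) in the lead in Y-WT mice. Among 39 family members and partners of the 9 genes, 8 rose and 9 fell in Y-WT HSCs and 6 rose and 6 fell in Y-TTPΔARE HSCs. Relatives of one member could go opposite ways: of the adhesion receptors, Adgrg6 rose in Y-WT HSCs (3.74) and Adgrg3 fell (−2.92). Thbd, the thrombomodulin gene whose product works with EPCR, rose by 3.67 and Meis3 by 2.13 on the log2 scale. Thbd is known as an endothelial gene. In Y-WT HSCs Adgrg6 and Thbd varied widely between libraries, at means of 9.64 (SD 6.26) and 70.3 CPM (SD 40.8). Neither gene was tested without replicates 1 and 4 of the Y-WT HSCs.

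Cell type and proliferation genes differed as well. All 20 cell cycle genes fell in HSCs of both genotypes, with Mki67 at −2.49 and Bub1 at −2.45 in Y-WT mice. Of 14 granulocyte and monocyte genes 8 fell in Y-WT HSCs and 10 in Y-TTPΔARE HSCs, led in Y-WT mice by Mpo (−7.52) and Ctsg (−6.66). Endothelial genes rose in HSCs, 9 of 12 in Y-WT mice and 7 of 12 in Y-TTPΔARE mice, where 1 fell. Of the other lists, 3 of 8 megakaryocyte genes rose in Y-WT HSCs and 4 in Y-TTPΔARE HSCs. Of 9 erythroid genes 1 rose and 1 fell in Y-WT HSCs, and 3 rose and 2 fell in Y-TTPΔARE HSCs. Of 10 T- and NK-cell genes 3 rose and 2 fell in Y-WT HSCs and 4 rose and 1 fell in Y-TTPΔARE HSCs. None of 9 B-cell genes passed in either. In such bulk samples fewer cells of a type and less RNA per cell cannot be told apart, and the part of other cells in the members' differences was not tested.

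M HSCs were compared with Y HSCs to see how the 9 genes stood in older mice. In WT mice 6 of the 9 genes rose with age, namely Fgd5, Procr, Prdm16, Adgrg1, Mecom and Mllt3, and in TTPΔARE mice 7 rose, those 6 and Hlf. No member fell in either genotype. Over all genes, 8.38% of 22280 rose in M-WT HSCs and 4.98% of 23336 rose in M-TTPΔARE HSCs. The median log2 fold change of the 9 genes was 0.46 in WT and 0.49 in TTPΔARE mice, against −0.04 and −0.01 over all genes. The age groups did not overlap for 6 of the 9 genes in WT mice (Mecom, Procr, Fgd5, Meis1, Prdm16 and Adgrg1), where 21.4% of genes were apart, and for 8 of 9 in TTPΔARE mice, where 31.9% were apart. Ctnnal1 was the one member with overlap in TTPΔARE mice.

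Fgd5 had the largest rise in WT mice, 1.87-fold, with a log2 fold change of 0.90 (SE 0.11, adjusted p = 7.7e-04). Procr followed at 0.57 (SE 0.12, adjusted p = 0.00784), Prdm16 at 0.50 (SE 0.07, adjusted p = 9.3e-04), Adgrg1 at 0.47 (SE 0.04, adjusted p = 1.5e-04), Mecom at 0.46 (SE 0.07, adjusted p = 0.00198) and Mllt3 at 0.37 (SE 0.09, adjusted p = 0.0196). Hlf, at 0.25 (SE 0.08, adjusted p = 0.0411), passed the p but not the fold limit. For Meis1 the log2 fold change was 0.16 (adjusted p = 0.0505, 95% interval 0.05 to 0.28) and for Ctnnal1 0.21 (adjusted p = 0.161, 95% interval −0.02 to 0.44). The rise of Mllt3 ended as a call without replicate 2 of the Y-WT HSCs (adjusted p = 0.0629). Hlf was called without replicate 1 of the Y-WT HSCs (0.30, adjusted p = 0.0143) or replicate 3 of the M-WT HSCs (0.30, adjusted p = 0.0147), and Ctnnal1 without that Y-WT replicate 1 (0.35, adjusted p = 0.00770). Of all genes called, 1868 rose and 823 fell in M-WT HSCs, and with upper quartile scaling 1103 rose and 1243 fell, the same 6 members being called. With the receptor genes as a covariate, Mllt3 (0.19, adjusted p = 0.297) and Procr (0.32, adjusted p = 0.110) were no longer called.

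In TTPΔARE mice Procr led at a log2 fold change of 0.65 (SE 0.08, adjusted p = 6.5e-04), with Fgd5 and Mecom both at 0.55 (adjusted p = 0.00182 and 9.9e-04), Prdm16 at 0.52, Mllt3 at 0.49, Adgrg1 at 0.44 and Hlf at 0.43. Meis1 stood at 0.22 (adjusted p = 0.0644, 95% interval 0.08 to 0.36). For Ctnnal1 the value was −0.07 (adjusted p = 0.730), with a 95% interval from −0.23 to 0.10. In a fit of all 24 libraries together, Fgd5 (adjusted p = 0.0718) and Mllt3 (adjusted p = 0.0632) were not called in TTPΔARE mice, and Mllt3 (adjusted p = 0.0554) was not in WT mice.

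Endothelial genes fell with age in WT mice, 7 of 12, while 3 fell and 1 rose in TTPΔARE mice. Without replicates 1 and 4 of the Y-WT HSCs, the age rises of the members were as large or larger. Fgd5 then stood at a log2 fold change of 1.06, Procr at 0.82, Mecom at 0.57, Prdm16 at 0.55, Mllt3 at 0.53 and Adgrg1 at 0.49, and Ctnnal1 was called too (0.43, adjusted p = 0.00617). The Y-WT HSC libraries kept in that setting, replicates 2 and 3, had the highest summed receptor genes of all 24 libraries, at 790 and 983 CPM. With the receptor genes as a covariate and all libraries kept, Procr (0.32) and Mllt3 (0.19) rose less. Age went together with library sets, since the sample numbers of M HSCs, Y HSCs and MPP3 cells form separate ranges. What these number ranges stand for is not stated, and age or cell type cannot be told apart from them.

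**Figure D4:**
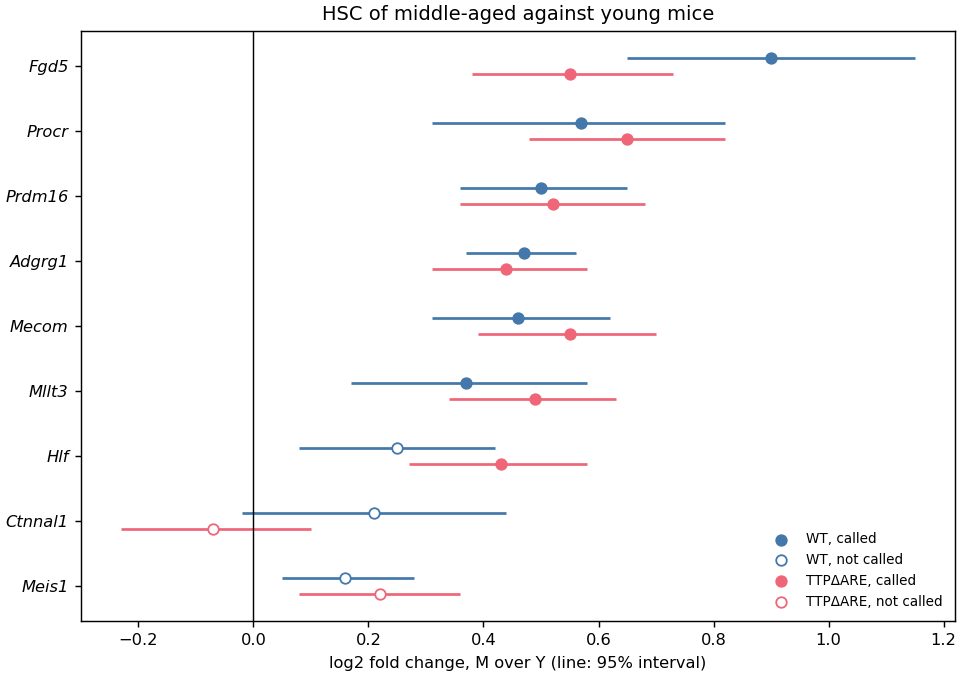
Log2 fold change of M over Y HSCs (horizontal axis) with its 95% interval (line) for the 9 genes in WT (blue) and TTPΔARE mice (red); filled points passed the rule for a call. Fgd5 leads in WT mice at 0.90 and Procr in TTPΔARE mice at 0.65, while Ctnnal1 and Meis1 are open in both.

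The other HSC genes moved with age in the same comparisons. Of the 20 other HSC regulators 9 rose in M-WT and 7 in M-TTPΔARE HSCs and 0 fell, among them Mycn (log2 fold change 0.81), Nkx2-3 (0.50) and Lyl1 (0.42) in WT mice. Of the 20 surface and signalling genes 8 rose in each genotype and 0 fell. Vwf, the von Willebrand factor gene that marks platelet-biased HSCs, rose by 1.94 in WT and 1.34 in TTPΔARE mice on the log2 scale, and Gda by 1.48 and 1.72. Of the family members and partners, 6 rose and 2 fell in WT and 3 rose and 1 fell in TTPΔARE mice. The rises included Meis3 (0.76) and the MEIS partner Pbx3 (0.62) in WT mice, and the falls Adgrg6 (−2.16) and Thbd (−1.73). Slamf1 rose (0.65) and Cd48 (−2.32), Flt3 (−1.16) and Cd34 (−0.73) fell in M-WT HSCs. Of the cell cycle genes, 15 of 20 fell in M-WT and 20 of 20 in M-TTPΔARE HSCs.

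Lineage lists moved less uniformly with age. Of the granulocyte and monocyte genes 2 rose and 1 fell in WT and 2 rose and 2 fell in TTPΔARE mice. Of the megakaryocyte genes 2 fell in WT and none passed in TTPΔARE mice, where the median log2 fold change of the 6 tested was −0.32. Of the erythroid genes 1 rose in WT and 3 fell in TTPΔARE mice. Of the T- and NK-cell genes 1 rose in each genotype, and 5 fell in WT and 7 in TTPΔARE mice. Their summed level was 82.1 to 97.2 CPM in Y-WT, 118 to 213 in Y-TTPΔARE, 53.2 to 64.4 in M-WT and 54.5 to 72.0 CPM in M-TTPΔARE HSCs. None of the B-cell genes passed.

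TTPΔARE was compared with WT in Y HSCs, M HSCs and Y MPP3 cells, which was the study's own question. In Y HSCs 0 of the 9 genes passed by edgeR's quasi-likelihood test or by DESeq2. The former called 0.0246% of 24381 genes in either direction. By that edgeR test Zfp36 itself was not called (log2 fold change 0.96, adjusted p = 0.238), although its groups did not overlap. The study, also with edgeR, reported Zfp36 as raised there and far more genes as changed. A member without a call here was thus not shown to be unchanged. An unadjusted p under 0.05 was found for 1 of the 9 and for 7.38% of all genes tested. Procr was that gene, 1.24-fold higher with a log2 fold change of 0.31 (SE 0.13, edgeR adjusted p = 0.621, 95% interval 0.03 to 0.60). The other 8 lay between −0.05 and 0.17 on the log2 scale, with 95% intervals that all fell within −0.26 and 0.43. Adgrg1 was the one member whose groups did not overlap, where 8.35% of genes were apart, with a log2 fold change of 0.06 (95% interval −0.05 to 0.18). Without replicates 1 and 4 of the Y-WT HSCs again 0 passed, Procr then standing at 0.64 (SE 0.09, adjusted p = 0.0635) and all 9 log2 fold changes being above 0.

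In M HSCs 1 of the 9 genes passed by edgeR's quasi-likelihood test, where 1.41% of 21136 genes were called in either direction. DESeq2, which called 375 genes higher and 460 lower in all, called 3, Procr, Hlf (adjusted p = 0.0129) and Ctnnal1 (adjusted p = 8.2e-04). Procr rose 1.30-fold in M-TTPΔARE HSCs, with a log2 fold change of 0.38 (SE 0.06, adjusted p = 0.0115, 95% interval 0.25 to 0.52), and all 3 libraries were above all 5 M-WT libraries. This call ended without replicate 1 (adjusted p = 0.0785) or replicate 3 (adjusted p = 0.0980) of the M-TTPΔARE HSCs. It also ended in a fit of all 24 libraries (adjusted p = 0.420), with the replicate block (adjusted p = 0.117) and with the receptor genes as covariate (adjusted p = 0.0613). For Ctnnal1 the log2 fold change was −0.29 (SE 0.06, edgeR adjusted p = 0.0521, 95% interval −0.43 to −0.15), and without replicate 1 of the M-WT HSCs it was called (−0.32, adjusted p = 0.0478). Hlf stood at 0.27 (SE 0.08, edgeR adjusted p = 0.122) and Mecom at 0.21 (SE 0.06, edgeR adjusted p = 0.120). These 4 were the members whose groups did not overlap, where 13.8% of genes were apart. Unadjusted p-values were under 0.05 for 6 of the 9 genes and for 16.0% of all genes tested. The 6 included Fgd5 (−0.19) and Mllt3 (0.18). Meis1, Prdm16 and Adgrg1 lay between −0.01 and 0.03, their 95% intervals all within −0.15 and 0.14.

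In Y MPP3 cells 0 of the 9 genes passed by edgeR's quasi-likelihood test, where 1.71% of 19023 genes were called, while 5 had an unadjusted p under 0.05, as did 12.1% of all genes tested. DESeq2, which called 563 genes higher and 203 lower in all, called 3 of them, Adgrg1, Fgd5 and Meis1, all lower in Y-TTPΔARE. The values leaned downwards, 7 of the 9 log2 fold changes being below 0, with a median of −0.34 against 0.04 over all genes tested. Fgd5 stood at −0.78 (SE 0.23, edgeR adjusted p = 0.167, 95% interval −1.30 to −0.27) and Adgrg1 at −0.50 (SE 0.15, edgeR adjusted p = 0.178). Prdm16 (−0.47, edgeR adjusted p = 0.207) and Meis1 (−0.38, edgeR adjusted p = 0.189) completed the 4 members whose groups did not overlap, where 12.3% of genes were apart. Procr went the other way at 0.33 (edgeR adjusted p = 0.413), and Mllt3 stood at 0.04.

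Left out, single libraries changed the MPP3 calls. Without replicate 4 of the Y-TTPΔARE MPP3 libraries, Adgrg1 was called lower (log2 fold change −0.38, SE 0.06, adjusted p = 0.0162), and Fgd5 stood at −0.64 (adjusted p = 0.207). Without replicate 2 of the same group, whose Fgd5 level of 27.3 CPM was its highest, Fgd5 was called lower (−1.04, adjusted p = 0.0275). Granulocyte and monocyte genes stood beside these values, since 4 of 14 rose in Y-TTPΔARE MPP3 cells, led by Ly86 (3.59) and Irf8 (3.25), and their summed level was 1083 to 2294 CPM in Y-WT and 2020 to 3912 CPM in Y-TTPΔARE MPP3 cells. Their part in the members' values was not tested. The T- and NK-cell genes summed to 237 to 346 CPM in Y-WT and 269 to 647 CPM in Y-TTPΔARE MPP3 cells.

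**Figure D5:**
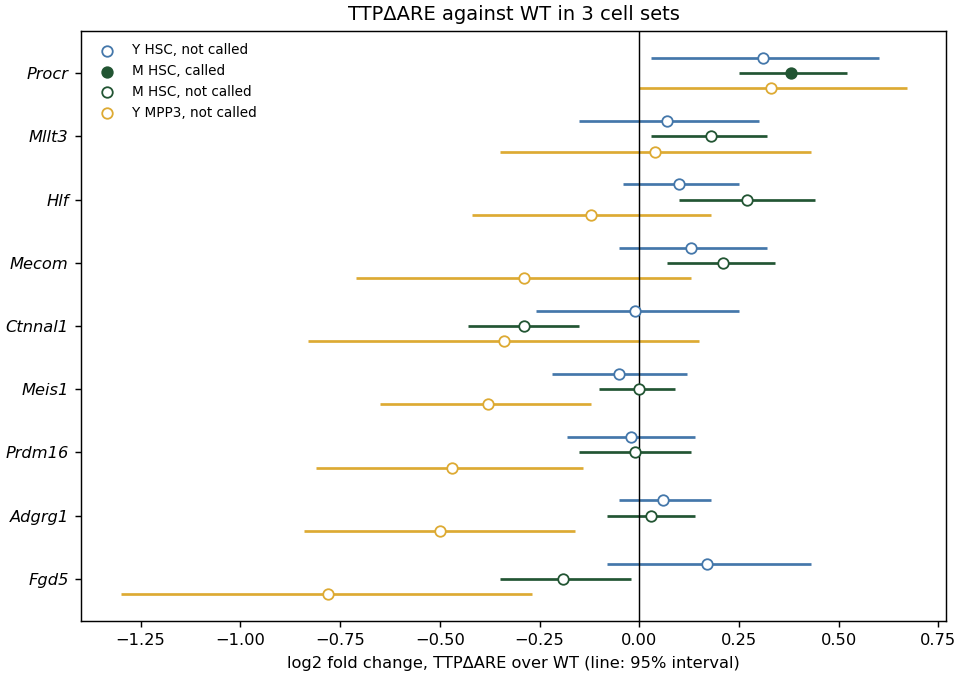
Log2 fold change of TTPΔARE over WT (horizontal axis) with its 95% interval (line) for the 9 genes in Y HSCs (blue), M HSCs (green) and Y MPP3 cells (yellow); filled points passed the rule for a call. The one filled point is Procr in M HSCs, at 0.38, and Fgd5, Adgrg1, Prdm16 and Meis1 lie left of 0 in MPP3 cells.

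Members with and without the TTP heptamer were set side by side. In M HSCs the 3 without it had log2 fold changes of −0.29 to 0.03 and the 6 with it −0.19 to 0.38. In Y MPP3 cells the 3 without it lay between −0.50 and −0.34 and the 6 with it between −0.78 and 0.33. Procr, whose 3′ UTR was the shortest of the 9, was the member that rose in M-TTPΔARE HSCs, and Mllt3, with 3 heptamers, stood at 0.18 there. The ranges overlapped in both cell sets.

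The other HSC genes gave few genotype calls. Of the 20 other HSC regulators 0 passed in Y HSCs and in Y MPP3 cells, where their median log2 fold changes were 0.02 and −0.01. In M HSCs Hoxa9 (log2 fold change 0.35) and Lmo2 (0.28) rose. Of the surface and signalling genes 0 passed in Y HSCs, Cdkn1c rose in M HSCs (0.48), and in MPP3 cells Sult1a1 rose (1.94) and Tek fell (−1.26). Of the family members and partners 0 passed in either set of HSCs, and Adgrg5 (3.84) and Fgd2 (1.06) rose in MPP3 cells. Of the sort gate genes 1 passed, Cd34, which fell in M-TTPΔARE HSCs (−0.74). Of the endothelial genes 0 passed in Y HSCs, where their median log2 fold change was −1.33, and in MPP3 cells, and Cldn5 fell in M HSCs (−0.66). Of the cell cycle genes Mcm6 (−0.41) and Mcm3 (−0.39) fell in M HSCs.

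Among the lineage lists, Hbb-bt rose in Y-TTPΔARE HSCs (log2 fold change 1.60) and MPP3 cells (1.99) and Car2 in M-TTPΔARE HSCs (0.55). Csf3r fell in M-TTPΔARE HSCs (−0.82), Itga2b fell there (−1.04) and in MPP3 cells (−0.91), and Lck rose in MPP3 cells (0.76). Of the granulocyte and monocyte, megakaryocyte and T- and NK-cell genes 0 passed in Y HSCs, and none of the B-cell genes passed in any of the 3 sets. The other lists gave no further call in these 3 comparisons.

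Whether the genotype effect differed by age was tested as an interaction over the 16 HSC libraries. Of the 9 genes 0 passed by the quasi-likelihood test of edgeR or by DESeq2, where 0.0213% of 28189 genes were called by the former, and 2 had an unadjusted p under 0.05, as did 15.0% of all genes tested. These were Fgd5, whose effect in M minus that in Y HSCs was −0.41 (SE 0.14, adjusted p = 0.271), and Ctnnal1, at −0.33 (SE 0.14, adjusted p = 0.297). The other 7 lay between −0.08 and 0.12. Without replicates 1 and 4 of the Y-WT HSCs Ctnnal1 was called, at −0.67 (adjusted p = 0.0441), and Fgd5 also stood at −0.67 (adjusted p = 0.0605). The difference of Procr was 0.02 (SE 0.16, 95% interval −0.32 to 0.36) with all libraries and −0.34 (adjusted p = 0.0845) without those 2, so its larger value in M than in Y HSCs was not shown to differ by age.

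Whether the genotype effect differed by cell type was tested over the 16 libraries of young mice. In this test 0 of the 9 genes passed, where 0.429% of 26337 genes were called, and 5 had an unadjusted p under 0.05, as did 10.7% of all genes tested. All 9 values were above 0, with a median of 0.44 against −0.11 over all genes, meaning a higher log2 fold change of TTPΔARE over WT in HSCs than in MPP3 cells. Adgrg1 came nearest, at 0.68 (SE 0.15, edgeR adjusted p = 0.0577, 95% interval 0.36 to 0.99), and Fgd5 had the largest value, 1.06 (SE 0.27, edgeR adjusted p = 0.105, 95% interval 0.50 to 1.63). Both were called by DESeq2 (adjusted p = 0.0121 and 0.0251), which in all called 69 genes above 0 and 262 below it. Prdm16 (0.55), Mecom (0.53), Ctnnal1 (0.44), Meis1 (0.43), Hlf (0.32), Mllt3 (0.12) and Procr (0.06) followed. Without replicate 4 of the Y-TTPΔARE MPP3 libraries 0 passed, Adgrg1 standing at 0.55 (adjusted p = 0.101) and Fgd5 at 0.92 (adjusted p = 0.229). Single calls arose without replicate 2 of that group (Fgd5 at 1.25, adjusted p = 0.0161) or replicate 3 (Adgrg1 at 0.61, adjusted p = 0.0395). Of the other lists, 1 gene each passed by cell type among the family members (Fgd2, −0.89), the granulocyte and monocyte genes (Irf8, −2.96) and the endothelial genes (Kdr, −4.69). By age 0 of any list passed. Kdr varied widely between Y-WT HSC libraries, at a mean of 73.5 CPM (SD 46.9), and was not read without replicates 1 and 4 of that group.

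The comparisons share libraries, the Y-WT HSCs entering 5 of the 9 and each other group at least 3, so that their values are not independent of each other. The study gives its sequencing numbers in the form it uses for counts of mice, but neither it nor the labels state whether a library came from a single animal or from a pool. If libraries of a group shared animals, the p-values measure only the spread between these libraries, which may be technical.

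The genes whose pattern over the 6 groups was most like the members' were found by the mean absolute difference of centred log2 CPM from the median profile of the 9. That profile stood at 0.12 in Y-WT, 0.31 in Y-TTPΔARE, 0.63 in M-WT and 0.67 in M-TTPΔARE HSCs, and at −0.91 in Y-WT MPP3 cells, with its lowest value in Y-TTPΔARE MPP3 cells. Among 13581 candidates over the logCPM limit, 4933431E20Rik was the nearest (0.06), followed by Plxna1, Edar, Inppl1 and 1700029J07Rik (0.07 each). Of the members Prdm16 (0.08) and Mecom (0.09) were nearest to their own median profile, and Mllt3 (0.54) and Hlf (0.43) farthest from it. Over 6 groups such likeness is a description.

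Promoters are shown for the member that separated the cell types most and for the one called by genotype. They run from 250 bases before to 50 bases after the annotated start, as RefSeq gives them on GRCm38.p6. For Mllt3 the first of 2 listed promoters is shown. Capitals mark CAGCTG, an E-box that basic helix-loop-helix factors can bind, which was picked for display after the matches were seen.
Mllt3 promoter (chr4:88033358-88033657, minus strand): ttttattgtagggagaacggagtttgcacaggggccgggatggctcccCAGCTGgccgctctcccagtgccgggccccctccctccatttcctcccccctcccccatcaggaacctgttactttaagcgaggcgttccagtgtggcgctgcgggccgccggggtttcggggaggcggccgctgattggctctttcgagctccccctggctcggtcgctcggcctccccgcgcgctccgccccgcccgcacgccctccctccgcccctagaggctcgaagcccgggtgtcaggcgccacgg
Procr promoter (chr2:155750967-155751266, plus strand): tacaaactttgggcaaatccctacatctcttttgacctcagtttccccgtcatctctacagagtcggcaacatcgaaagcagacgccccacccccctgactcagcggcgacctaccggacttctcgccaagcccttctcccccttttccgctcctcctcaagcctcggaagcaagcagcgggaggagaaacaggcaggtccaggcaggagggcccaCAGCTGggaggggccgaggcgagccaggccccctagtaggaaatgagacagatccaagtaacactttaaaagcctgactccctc

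All 9 genes matched in the RefSeq promoter table, with 12 listed promoters, and 6 short motifs were searched on both strands. The E-box was in a listed promoter of Mllt3 and Procr, and in 16.3% of 32851 promoters. TGACAG, a MEIS motif, was in a promoter of Mecom, Fgd5 and Mllt3, and in 19.2% of all promoters. In Mllt3 it lay in the second listed promoter, which is not shown. CCGGAAG, an ETS motif, and TGTGGT, a RUNX motif, were each in that of Meis1, and in 8.9% and 16.8% of all promoters. The motif of GATA factors (AGATAA) was in none of the 12 and in 11.2% of all promoters. The letters TATAAA, found in some core promoters, were in none of the 12 either and in 13.6% of all promoters.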

How the data were processed

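The deposited files hold raw counts, whole numbers of reads per gene symbol, 1 file per library and 24 in all. Per the labels and the methods, the authors trimmed reads with Trim Galore!/Cutadapt, aligned them with STAR to mm10 with a GENCODE M22 index and counted them with featureCounts. Whether counting used strand or multimapping reads is not given in the sources used here, so reads of genes that overlap a member, antisense genes included, could be counted with it. The sources name 2 different SMART-type library kits. Depth lay between 24261371 and 39934554 counts, and no pair of libraries of the same group agreed within sampling noise.

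From these counts, genes were filtered with filterByExpr (10 counts, 15 in total), scaled by TMM and tested with edgeR 4.0.16 (quasi-likelihood, R 4.3.3, limma 3.58.1) within the libraries of each comparison, with Benjamini-Hochberg adjustment over all genes tested. Calls needed a fold over 1.2, a mean logCPM above 1.5 and an adjusted p below 0.05, the limits the study set. SE is the log2 fold change divided by the root of F, and intervals are 95%. CPM values use TMM factors over the 24 libraries. Receptor genes are 1971 olfactory and vomeronasal receptor genes, and segment genes are 634 immunoglobulin and T-cell receptor segment genes. DESeq2 1.42.0, other scalings and filters, covariates and left-out libraries were alternatives. The tests were tested on simulated data. The members, the gene lists and the tests were chosen with earlier results of these data known. Up to 4 called genes with the largest change were named from each list, except for 1 list gene that is not reported here. In Y-TTPΔARE mice, HSC and MPP3 libraries of the same number deviated together (r = 0.23, 0.17, 0.20 and 0.14), a pairing seen in the data and not stated in the labels, and with the replicate block all 9 genes were still called there.

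Promoters came from RefSeq (GRCm38.p6). Gene positions, exon lengths and 3′ UTRs came from GENCODE M21 on GRCm38, a release other than the one used for the counts. Protein sequences were not used here.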

Additional observations from a re-analysis of the deposited data

Results flagged for a closer look

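Of 45 sets of a gene and a group of 4 or 5 libraries tested for a library far from the others, 2 stood out, and chance marks about 1 in 20 groups. Fgd5 gave 90.8 CPM in replicate 4 of the Y-WT HSCs, against 61.9 to 66.3 CPM in the other 3. That library also had the highest summed endothelial genes of all 24, at 939 CPM, and the part of these cells in the Fgd5 value was not tested. Prdm16 gave 60.1 CPM in replicate 3 of the Y-WT HSCs, against 68.6 to 70.1 CPM in the other 3, and that library had the highest summed receptor genes of its group, at 983 CPM.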

How the results depend on the processing

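Of 1728 log2 fold changes of single members under alternatives, 1549 kept direction and call, 48 lost a call, 29 gained one and 102 changed sign, the last in 16 pairs of a member and a comparison with reported sizes of at most 0.12, none of them called. Of 192 counts of called members, 168 stayed within 1.5 times the reported count. The cause of the changes was not tested, except that a higher fold limit leaves fewer calls by construction.

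A fold change over 2 left 5 members called for HSC over MPP3 in Y-WT mice and 0 for age in either genotype and for genotype in M HSCs. For genotype in M HSCs, with 1 called as reported, DESeq2 called 3, the data without a filter 2, the data without segment genes 2, and 0 were called in a fit of all 24 libraries (Procr adjusted p = 0.420), with the replicate block (Procr adjusted p = 0.117) or with the receptor genes as covariate (Procr adjusted p = 0.0613). For genotype in Y MPP3 cells DESeq2 called 3 and the fit of all 24 libraries 4. For the difference of genotype effects by cell type DESeq2 called 2, the likelihood ratio test 1 and the fit of all 24 libraries 2. With the receptor genes as covariate, 4 were called for age in WT mice. Without the 2 Y-WT HSC libraries highest in endothelial genes, a choice made after seeing the data, 5 were called for HSC over MPP3 in Y-WT mice and 1 for the difference by age. Leaving out 1 library gave 6 to 8 called for HSC over MPP3 in Y-WT and 8 to 9 in Y-TTPΔARE mice, 5 to 8 for age in WT and 7 to 7 in TTPΔARE mice, 0 to 0 for genotype in Y HSCs, 0 to 2 in M HSCs and 0 to 1 in MPP3 cells, 0 to 0 for the difference by age and 0 to 1 for that by cell type.

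Outside HSC over MPP3 in Y-TTPΔARE mice, r between libraries of the same number ran from −0.15 to 0.21. For HSC over MPP3 in Y-WT mice it was 0.03, 0.13, 0.09 and 0.19. In these other comparisons the replicate block gave 5 called for age in WT mice (Mllt3 adjusted p = 0.0525) and 0 for genotype in M HSCs. It changed no other call of a member.

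Sign changes in Y HSCs by genotype were those of Ctnnal1 (0.01 with DESeq2, RLE scaling or the replicate block, 0.06 without a filter, 0.04 with all 24 libraries, 0.02 without segment genes, 0.30 without the 2 endothelial-high libraries), Meis1 (0.02 without a filter, 0.07 without those 2) and Prdm16 (0.00018 with RLE, 0.06 without a filter, 0.03 with all 24, 0.02 without segment genes, 0.11 without those 2). In M HSCs they were those of Meis1 (0.0014 with DESeq2 or RLE, 0.03 with upper quartile scaling, 0.04 with all 24, 0.02 with the receptor covariate) and Prdm16 (0.03, 0.04 and 0.02 in the last 3 settings, 0.01 with the replicate block). For the difference by age they were those of Mecom (−0.0029 without a filter, −0.19 without the 2 libraries), Hlf (−0.03 without the 2), Procr (−0.01 without a filter, −0.0034 with the replicate block, −0.34 without the 2), Mllt3 (−0.21 without the 2), Meis1 (0.05 with DESeq2, RLE or all 24, 0.12 with upper quartile, 0.10 with the receptor covariate), Prdm16 (0.02 with DESeq2 or all 24, 0.01 with RLE, 0.08 with upper quartile, 0.04 with the receptor covariate) and Adgrg1 (0.04 with upper quartile). For the difference by cell type Procr gave −0.01 with DESeq2 or RLE, −0.05 with upper quartile and −0.02 with all 24.

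Leaving out 1 library also spanned 0 in Y HSCs for Ctnnal1 (−0.07 to 0.19), Meis1 (−0.05 to 0.07) and Prdm16 (−0.02 to 0.07), in M HSCs for Adgrg1 (−0.01 to 0.05), Meis1 (−0.03 to 0.01) and Prdm16 (−0.05 to 0.02), and in MPP3 cells for Mllt3 (−0.09 to 0.16). It did so for the difference by age of Mecom (−0.12 to 0.13), Meis1 (−0.13 to 0.06), Mllt3 (−0.13 to 0.13), Prdm16 (−0.13 to 0.02) and Procr (−0.19 to 0.11), and by cell type of Mllt3 (−0.07 to 0.20) and Procr (−0.13 to 0.15).

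The median of all genes moved from 0.16 to 1.26 without a filter, 0.34 with upper quartile scaling and 0.42 with all 24 libraries for HSC over MPP3 in Y-WT mice, and from −0.04 to −1.12, −0.13 and −0.21 for age in WT mice. Counts of all genes called, higher and lower, were 3 and 3 in Y HSCs by genotype against 165 and 139 with DESeq2, 148 and 150 in M HSCs against 375 and 460 with DESeq2, 221 and 124 with upper quartile scaling and 35 and 18 with all 24, and 300 and 26 in MPP3 cells against 563 and 203 with DESeq2 and 664 and 580 with all 24. They were 1161 and 757 for age in TTPΔARE mice against 394 and 411 with all 24 and 488 and 426 with the replicate block, and 1868 and 823 for age in WT mice against 1057 and 523 with the block. They were 1 and 5 for the difference by age against 50 and 107 with DESeq2, and 12 and 101 for that by cell type against 69 and 262.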
